A study of Homo sapiens with 9 samples.

Results

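The genes described here were the numbered zinc finger (ZNF) genes of human chromosome 19. They were chosen as the protein-coding genes of the deposited table whose symbol is ZNF followed by a number, whose position is on chromosome 19, and whose mean over the 9 libraries was at least 10 normalized counts, that is, reads per gene divided by a size factor for each library. Of 62710 genes in the table, 249 were numbered ZNF genes of chromosome 19, and 195 of these reached the mean of 10. The other 54 lay below it and entered no test. Of these, 32 were listed at 0 in all 9 libraries, and each of the 32 has exons that lie in part under another gene on the same strand (median 9.46% of exon length, range 0.55% to 90.56%), whereas 147 of the 195 have none. The overlap passed 50% of exon length in 4 of the 32 and in 2 of the 195. The 32 genes are given only as listed at 0, and whether reads over several genes, which the counter does not assign, or a later step set them to 0 was not tested. The rule compared no treatments, but its mean included the treated libraries. A gene below 10 in DMSO could thus enter through its level with the compounds, as ZNF568 did. The rule was also chosen with earlier results of these data known. At the edge of the choice, ZNF580, ZNF415 and ZNF568 lay just above the mean of 10 at 10.3, 11.6 and 12.1, and ZNF132, ZNF585B and ZNF773 lay just below it at 9.72, 8.99 and 7.57.

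The cells were A375R, a human melanoma line derived from A375 that is resistant to the BRAF inhibitor PLX4032. They were treated for 2 h with 10 µM VHL-r, the VHL-recruiting moiety alone, with 10 µM of the complete compound R4VPL3-1, in which a VHL recruiter is joined to a part that binds the ubiquitin ligase RNF4, or with DMSO. The 3 libraries of each treatment were described as independent biological repeats and held poly(A)-selected RNA read on 1 end for 100 bases with the strand kept. The labels of the control libraries read WT and carry no dose, whereas the series design and the study's methods name DMSO, so these libraries are called DMSO here. All 3 groups are the same resistant line, RNA was taken at 1 time only, and neither RNA synthesis nor RNA decay was measured. By the study's methods this line was kept in medium with PLX4032, which the labels of the libraries do not name.

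Most zinc finger proteins encoded on chromosome 19 carry a row of C2H2 fingers, each of which contacts a few bases of DNA, and many also carry an amino-terminal KRAB box. The KRAB box binds TRIM28 (KAP1), which brings in the histone methyltransferase SETDB1 and HP1 proteins and silences the bound site, often a retrotransposon. The genes arose by repeated local duplication and stand in clusters along the chromosome. Their mRNAs are known as a class for short half-lives, so that their levels follow changes of synthesis or decay sooner than those of long-lived mRNAs. In the proteins translated from the canonical Ensembl transcripts, a KRAB signature was found for 167 of the 195 genes and not for 28, and the median number of C2H2 fingers was 13 with a KRAB box and 10 without.

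At this depth the genes were measured well as a class and poorly only at its lower end. The libraries held between 26435568 and 32085626 reads in genes, and the 195 genes took 78531 to 103968 of them per library. Their median level was 306.6 normalized counts, against 577.7 for the 15230 genes tested. Markers of the line were as follows. The pigment genes MLANA and TYR were listed at 0 or at most 2.14, PMEL was at most 36.8, and 10 of the 12 melanoma and neural crest markers reached 10 in every library. Of 8 markers of other cell types, KRT14 was at 224 to 365, KRT5 at 11.3 to 24.2, and the other 6 were at or below 11.8. Without KRT14 their summed level was 37.2 to 42.6 in DMSO, 27.7 to 44.1 in VHL-r and 25.7 to 37.3 in R4VPL3-1. KRT14 was lower in R4VPL3-1 (limma adjusted p = 0.00104), and its part in the results was not tested. Some of the line's own markers fell with the compounds. SOX10, the neural crest factor, was at 17007 to 17935 normalized counts in DMSO, 9133 to 11216 in VHL-r and 7900 to 8752 in R4VPL3-1, without overlap (log2 -0.79 and -1.06 against DMSO, limma adjusted p = 3.14e-09 and 1.56e-11). MITF, the factor of the melanocyte lineage, fell by 0.71 and 0.77 on the log2 scale (adjusted p = 4.02e-05 and 9.87e-06). Of the 10 line markers tested, 3 fell with VHL-r and 5 with R4VPL3-1, where 9.51% and 11.8% of all genes tested fell. The summed level of the 12 was 61100 to 65160 in DMSO, 50328 to 56297 in VHL-r and 48696 to 52360 in R4VPL3-1, and the part of this fall in the results was likewise not tested. In bulk RNA, fewer cells of a type and less RNA per cell cannot be told apart.

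The promoters of the genes whose levels moved most are shown here with short runs of letters marked. RefSeq windows from 250 bases before to 50 bases after the start (GRCh38.p14) matched 173 of the 195 genes by symbol. The 5 printed belong to the 3 largest rises and the 2 largest falls with R4VPL3-1 among genes with a mean of at least 50 and a window. Each is written 5′ to 3′ on the strand of the gene, and capitals mark CCGGAAG (the letters of an ETS family site), GGGCGG (of an Sp1 site) and CCAAT, on either strand, with no overlap among the marked runs. CCAAT stands in all 5 windows, CCGGAAG only in those of ZNF846 and ZNF324B, and GGGCGG only in those of ZNF442, ZNF433 and ZNF792. The windows of ZNF442 (chr19:12365634-12365933, minus strand), ZNF846 (chr19:9768689-9768988, minus) and ZNF433 (chr19:12035630-12035929, minus) come first, then ZNF324B (chr19:58451372-58451671, plus) and ZNF792 (chr19:34964180-34964479, minus).
ZNF442: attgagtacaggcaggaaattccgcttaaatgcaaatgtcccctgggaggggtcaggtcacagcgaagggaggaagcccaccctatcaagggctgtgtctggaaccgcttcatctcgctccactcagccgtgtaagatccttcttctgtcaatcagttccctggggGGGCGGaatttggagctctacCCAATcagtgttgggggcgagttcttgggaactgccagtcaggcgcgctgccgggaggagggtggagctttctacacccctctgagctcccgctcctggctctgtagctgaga
ZNF846: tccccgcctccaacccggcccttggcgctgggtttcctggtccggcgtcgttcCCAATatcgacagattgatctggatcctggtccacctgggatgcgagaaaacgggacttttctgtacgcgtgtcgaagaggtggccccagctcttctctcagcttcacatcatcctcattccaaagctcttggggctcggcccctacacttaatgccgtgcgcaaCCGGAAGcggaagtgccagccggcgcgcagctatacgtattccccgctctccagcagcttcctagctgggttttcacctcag
ZNF433: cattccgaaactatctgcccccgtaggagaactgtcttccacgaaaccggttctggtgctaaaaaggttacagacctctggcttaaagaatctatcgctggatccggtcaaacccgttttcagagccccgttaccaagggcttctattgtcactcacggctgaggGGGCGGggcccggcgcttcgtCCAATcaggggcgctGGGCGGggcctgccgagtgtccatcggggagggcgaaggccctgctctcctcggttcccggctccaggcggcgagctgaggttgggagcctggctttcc
ZNF324B: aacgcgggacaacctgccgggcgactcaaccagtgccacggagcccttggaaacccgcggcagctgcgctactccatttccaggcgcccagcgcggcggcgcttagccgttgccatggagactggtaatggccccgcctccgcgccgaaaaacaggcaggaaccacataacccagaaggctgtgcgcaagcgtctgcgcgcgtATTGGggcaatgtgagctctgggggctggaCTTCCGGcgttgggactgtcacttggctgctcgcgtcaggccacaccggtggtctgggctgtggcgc
ZNF792: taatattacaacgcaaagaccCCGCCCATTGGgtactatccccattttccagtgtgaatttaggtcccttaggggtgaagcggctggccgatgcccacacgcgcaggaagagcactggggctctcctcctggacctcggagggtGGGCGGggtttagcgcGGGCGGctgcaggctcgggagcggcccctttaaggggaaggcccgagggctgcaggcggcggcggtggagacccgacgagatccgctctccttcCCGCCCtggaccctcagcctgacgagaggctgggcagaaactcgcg

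CCGGAAG was found in 79 of the 173 windows (45.7%), against 10.7% of all 27305 windows in the table and 18.8% of the 10071 windows of protein-coding genes tested. Numbered ZNF genes on other chromosomes held it in 64 of 173 windows (37.0%). Within the chromosome 19 class, CCGGAAG was in 51.8% of the 83 windows of genes that rose with R4VPL3-1, 50% of the 12 that fell and 38.5% of the 78 that were not called. CCAAT was in 53.2% of the windows of chromosome 19 ZNF genes, against 35.7% of all windows and 36.9% of those of protein-coding genes tested. For numbered ZNF genes on other chromosomes the share with CCAAT was 42.8%. By response, CCAAT was in 65.1% of the genes that rose, 66.7% of those that fell and 38.5% of those not called. GGGCGG, at 67.1%, was near the 70.3% of protein-coding genes tested, and TATAAA was in 4 windows, 2.31%, against 5.56%. The letters CCGGAAG were thus frequent over the class whether or not a gene moved, and were frequent in numbered ZNF genes elsewhere as well. A match of letters is a description of the window and not a bound site.

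Treatment with VHL-r was compared with DMSO to see how the recruiter alone changed these mRNAs. Of the 195 genes, 68 (34.9%) rose at a limma adjusted p of at most 0.05, where 10.3% of all genes tested were called higher. A further 14 (7.18%) fell, where 9.51% of all genes tested were called lower. The median log2 fold change was 0.20 over the class and -0.005 over all genes tested, and 142 of the 195 values were positive. In 87 genes all 3 VHL-r libraries lay above all 3 DMSO libraries, and in 25 all lay below, against 17.1% and 17.2% of all genes tested. The rises were mostly modest, since 24 of the called genes passed 1.5-fold and 5 passed 2-fold. These counts include ZNF568, which entered the tests only through its level with the compounds. No fall reached 2-fold.

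Treatment with R4VPL3-1 was compared with the same DMSO libraries, so the comparisons with DMSO are not independent of each other. The full molecule raised 95 genes (48.7%), against 13.1% of all genes tested, and lowered 13 (6.67%), against 11.8%. The median log2 fold change was 0.31 over the class and -0.006 over all genes tested, and 152 of the 195 values were positive. All 3 R4VPL3-1 libraries lay above all 3 DMSO libraries in 114 genes and below in 21, where 19.1% and 18.9% of all genes tested did so. Of the genes that rose, 43 passed 1.5-fold and 10 passed 2-fold, with ZNF568 again included in these counts. Without R4VPL3-1 replicate 3 the number that fell was 8.

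Library by library, the class kept the order of the treatments. The median over the 195 genes of the log2 deviation from the DMSO mean was -0.055, 0.011 and 0.048 in the DMSO libraries, 0.262, 0.197 and 0.139 in the VHL-r libraries, and 0.395, 0.279 and 0.282 in the R4VPL3-1 libraries. The groups did not overlap on this value, and over all genes tested the same medians lay between -0.006 and 0.007. Summed over the class, the normalized counts were 75938 to 79635 in DMSO, 82750 to 88160 in VHL-r and 89915 to 97079 in R4VPL3-1.

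**Figure D1:**
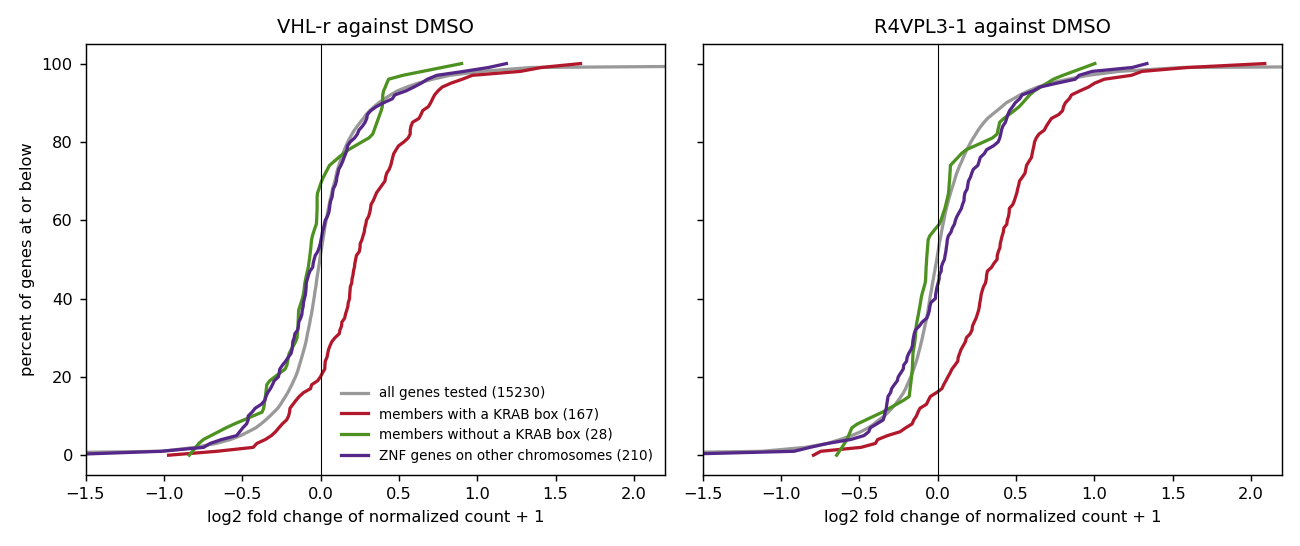
Cumulative distributions of the log2 fold change of normalized count + 1 (x axis) for VHL-r (left) and R4VPL3-1 (right) against DMSO, with the percent of genes at or below each value on the y axis. Except at its ends, the curve of the 167 genes with a KRAB box lies to the right of those of all 15230 genes tested, of the 28 genes without a KRAB box and of the 210 ZNF genes on other chromosomes, with medians of 0.22 and 0.38.

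Most of the genes that rose carried a KRAB box. With VHL-r, 65 of these 167 genes (38.9%) rose and 10 fell, with a median log2 fold change of 0.22, and with R4VPL3-1 92 (55.1%) rose and 10 fell, with a median of 0.38. Of the 28 genes without the box, 3 rose and 4 fell with VHL-r, 3 rose and 3 fell with R4VPL3-1, and the median was -0.07 in each comparison. Their shares, 10.7% higher with each compound and 14.3% and 10.7% lower, stand beside 10.3% and 13.1% higher and 9.51% and 11.8% lower among all genes tested. Numbered ZNF genes on other chromosomes rose less often as a class. Of 210 tested, 28 rose and 40 fell with VHL-r (median -0.04), and 57 rose and 37 fell with R4VPL3-1 (median 0.04). Rises made up 13.3% and 27.1% of them and falls 19% and 17.6%, so their rises with R4VPL3-1 and their falls also exceeded the shares of all genes tested. The 85 of them with a KRAB box had 17 rises with VHL-r and 30 with R4VPL3-1 (35.3%), with medians of 0.02 and 0.17. The other 691 protein-coding genes tested on chromosome 19 had medians of -0.004 and -0.006, with 71 and 84 rises (10.3% and 12.2%). No test of the difference between these lists was made.

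**Figure D2:**
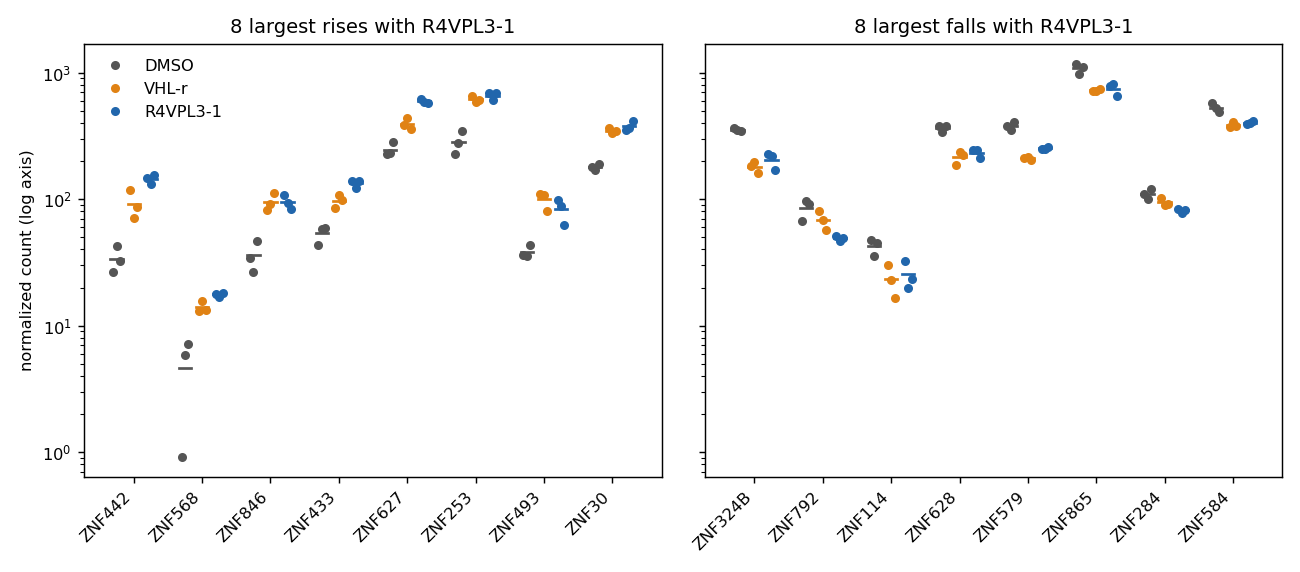
Normalized counts (log axis) in each of the 9 libraries for the 8 largest rises (left) and the 8 largest falls (right) with R4VPL3-1 among called genes whose DMSO and R4VPL3-1 libraries did not overlap, with points for libraries and short lines for the means of 3. ZNF442 stands at 26.3 to 42.3 in DMSO and at 132 to 154 in R4VPL3-1, and ZNF324B at 344 to 366 in DMSO and at 170.2 to 226 in R4VPL3-1. ZNF568, among the rises, entered the tests only through its level with the compounds.

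ZNF442 rose most in the class with R4VPL3-1. It encodes a KRAB protein, here with 14 fingers, from chr19:12345944-12365905. ZNF442 stood at 26.3, 42.3 and 32.5 normalized counts in the DMSO libraries, 117, 70.4 and 87.1 in VHL-r and 146, 132 and 154 in R4VPL3-1. The 3 groups did not overlap. ZNF442 rose 2.66-fold with VHL-r (log2 1.41 ± 0.20 SE, adjusted p = 2.05e-05). With R4VPL3-1 ZNF442 was 4.25-fold higher (log2 2.09 ± 0.20 SE, adjusted p = 7.31e-08). Its neighbours ZNF433 and ZNF627 in the same cluster showed the same order of groups. The normalized counts of ZNF433 were 43.6, 58.0 and 58.8 in DMSO, 85.1, 107 and 98.3 in VHL-r and 140.1, 122 and 140.2 in R4VPL3-1. For ZNF627 the libraries gave 227, 232 and 281 in DMSO, 387, 435 and 356 in VHL-r and 617, 590.0 and 573 in R4VPL3-1. For both genes all libraries of VHL-r stood above those of DMSO and all of R4VPL3-1 above those of VHL-r. The rise of ZNF433 with R4VPL3-1 was 2.5-fold (log2 1.32 ± 0.16 SE, adjusted p = 2.27e-06). ZNF627 rose 2.41-fold with R4VPL3-1 (log2 1.27 ± 0.096 SE, adjusted p = 2.7e-09). ZNF491, in that cluster but without a KRAB signature, was measured at lower level. In DMSO ZNF491 was measured at 26.3, 15.7 and 36.5, in VHL-r at 44.03, 48.3 and 49.2 and in R4VPL3-1 at 52.3, 44.8 and 55.7. With R4VPL3-1 ZNF491 was 2.00-fold higher (log2 1.00 ± 0.25 SE, adjusted p = 0.00493). Its rise with VHL-r (log2 0.90, adjusted p = 0.0134) was not called without DMSO replicate 2 (log2 0.59, adjusted p = 0.101).

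Other KRAB genes rose with both compounds to levels whose libraries overlapped. ZNF253, ZNF486 and ZNF493 lie in the large cluster next to the centromere, and ZNF30 on the other arm. ZNF253 was at 228, 275 and 346 in the DMSO, 650.5, 583 and 612 in the VHL-r and 686, 605 and 687 in the R4VPL3-1 libraries. ZNF486 stood at 474, 466 and 510.1 normalized counts in the DMSO libraries, 966, 933 and 934 in VHL-r and 976, 904 and 1006 in R4VPL3-1. The normalized counts of ZNF30 were 179, 171 and 191 in DMSO, 365, 334 and 347 in VHL-r and 352, 363 and 415 in R4VPL3-1. In these genes the libraries of both compounds stood clear of DMSO and overlapped each other. The rise of ZNF253 with R4VPL3-1 was 2.35-fold (log2 1.24 ± 0.11 SE, adjusted p = 2.93e-08). ZNF486 rose 1.99-fold with R4VPL3-1 (log2 0.99 ± 0.066 SE, adjusted p = 3.5e-10). With R4VPL3-1 ZNF30 was 2.08-fold higher (log2 1.06 ± 0.095 SE, adjusted p = 3.37e-08). The difference between R4VPL3-1 and VHL-r had a 95% interval of -0.13 to 0.33 for ZNF253, -0.11 to 0.16 for ZNF486 and -0.09 to 0.31 for ZNF30 on the log2 scale. ZNF493 and ZNF846 were measured at lower levels. For ZNF493 the libraries gave 36.3, 35.4 and 43.6 in DMSO, 109.08, 108 and 80.9 in VHL-r and 99.0, 88.5 and 62.1 in R4VPL3-1. In DMSO ZNF846 was measured at 34.5, 26.6 and 46.6, in VHL-r at 82.1, 91.4 and 113 and in R4VPL3-1 at 107, 92.5 and 83.5. Both rose with each compound. The rise of ZNF493 with VHL-r was 2.53-fold (log2 1.34 ± 0.19 SE, adjusted p = 2.98e-05). ZNF846 rose 2.65-fold with VHL-r (log2 1.41 ± 0.20 SE, adjusted p = 2.42e-05). The exons of ZNF846 lie under another gene on the same strand over 12.04% of their length, where reads are not assigned.

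ZNF568, whose mouse counterpart represses the placental transcript of Igf2, was near the limit of detection in DMSO. ZNF568 was at 0.910, 5.90 and 7.10 in the DMSO, 13.0, 15.8 and 13.3 in the VHL-r and 17.7, 16.9 and 18.2 in the R4VPL3-1 libraries. The groups were separate, but the DMSO values rest on 1 to 7 reads each. ZNF568 reached the level needed for testing only through the treated libraries, where it was higher. Its fold changes and adjusted p-values are therefore given as a description, and no conclusion on a rise is drawn from them. With R4VPL3-1 ZNF568 was 3.92-fold higher (log2 1.97 ± 0.45 SE, adjusted p = 0.00235). With VHL-r the log2 fold change was 1.66 (adjusted p = 0.0112). Without DMSO replicate 1 the log2 fold changes were 1.32 with R4VPL3-1 (adjusted p = 0.0116) and 1.00 with VHL-r (adjusted p = 0.0653), with a pseudocount of 5 they were 1.30 and 1.04, and DESeq2 did not call the rise with VHL-r (adjusted p = 0.0504). Its exons lie under another gene over 17.44% of their length.

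The falls were fewer and lay in part side by side. ZNF628, ZNF579 and ZNF865, none with a KRAB signature, are neighbours between chr19:55476617-55617269, and their transcripts are 65.98% to 70.87% GC. ZNF628 stood at 381, 337 and 378 normalized counts in the DMSO libraries, 186, 236 and 225 in VHL-r and 247, 244 and 211 in R4VPL3-1. The normalized counts of ZNF579 were 376, 353 and 407 in DMSO, 213, 215 and 205 in VHL-r and 247, 249 and 260.1 in R4VPL3-1. For ZNF865 the libraries gave 1179, 979.9 and 1116 in DMSO, 717, 719.6 and 743 in VHL-r and 785, 807 and 656 in R4VPL3-1. In each of the 3 all libraries of both compounds lay below all DMSO libraries. With VHL-r ZNF628 was at 0.589 times its DMSO level (log2 -0.76 ± 0.11 SE, adjusted p = 2.4e-05). ZNF579 fell to 0.560 times its DMSO level with VHL-r (log2 -0.84 ± 0.092 SE, adjusted p = 9.27e-07). With VHL-r ZNF865 was at 0.667 times its DMSO level (log2 -0.58 ± 0.080 SE, adjusted p = 1.6e-05). With R4VPL3-1 the same genes were at 0.639, 0.668 and 0.686 times their DMSO levels. ZNF324B, a KRAB gene near the chromosome end, fell most with each compound. In DMSO ZNF324B was measured at 366, 350.2 and 344, in VHL-r at 183, 197 and 161 and in R4VPL3-1 at 226, 219 and 170.2. ZNF324B fell to 0.511 times its DMSO level with VHL-r (log2 -0.97 ± 0.12 SE, adjusted p = 2.96e-06). With R4VPL3-1 ZNF324B was at 0.577 times its DMSO level (log2 -0.79 ± 0.12 SE, adjusted p = 2.55e-05). The KRAB genes ZNF584, ZNF586 and ZNF780B fell to 0.737, 0.754 and 0.754 times DMSO with VHL-r and to 0.759, 0.787 and 0.760 times with R4VPL3-1.

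ZNF792 fell with R4VPL3-1 while the gene next to it rose. It lies at chr19:34956354-34964229 on the minus strand, and ZNF30 at chr19:34926903-34945170 on the plus strand, so that their ends face each other. ZNF792 was at 67.2, 96.4 and 91.3 in the DMSO, 81.1, 68.3 and 57.4 in the VHL-r and 51.4, 46.8 and 49.2 in the R4VPL3-1 libraries. All R4VPL3-1 libraries were below all others. ZNF792 fell to 0.590 times its DMSO level with R4VPL3-1 (log2 -0.76 ± 0.18 SE, adjusted p = 0.00383). Its change with VHL-r was not called (log2 -0.29, adjusted p = 0.306). ZNF284 and ZNF114 rest on less firm ground. ZNF284 stood at 109.9, 99.4 and 119.7 normalized counts in the DMSO libraries, 102, 89.3 and 91.2 in VHL-r and 84.0, 77.6 and 82.4 in R4VPL3-1. With R4VPL3-1 ZNF284 was at 0.746 times its DMSO level (log2 -0.42 ± 0.14 SE, adjusted p = 0.0333). Leaving out any DMSO or R4VPL3-1 library other than DMSO replicate 2 ended this call, with adjusted p from 0.0531 (without R4VPL3-1 replicate 3) to 0.118 (without DMSO replicate 3), as did DESeq2 (0.102) and leaving out the filter (0.0615), and 44% of its exon length lies under another gene. The normalized counts of ZNF114 were 47.2, 35.4 and 44.6 in DMSO, 30.02, 23.1 and 16.4 in VHL-r and 32.7, 19.9 and 23.6 in R4VPL3-1. ZNF114 fell to 0.546 times its DMSO level with VHL-r (log2 -0.87 ± 0.27 SE, adjusted p = 0.0237). With R4VPL3-1 ZNF114 was at 0.600 times its DMSO level (log2 -0.74 ± 0.27 SE, adjusted p = 0.0481). For ZNF114 the call with VHL-r was lost without DMSO replicate 1 or 3 or VHL-r replicate 2 or 3 (adjusted p 0.0569 to 0.112), and that with R4VPL3-1 without any DMSO replicate, VHL-r replicate 2 or R4VPL3-1 replicate 2 or 3 (0.053 to 0.179). Both calls of ZNF114 were also lost with DESeq2 (adjusted p = 0.0718 and 0.13) and without the filter (0.0727 and 0.128), and that with R4VPL3-1 with TMM or upper quartile scaling or a pseudocount of 0.1 (0.0511 to 0.0541).

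**Figure D3:**
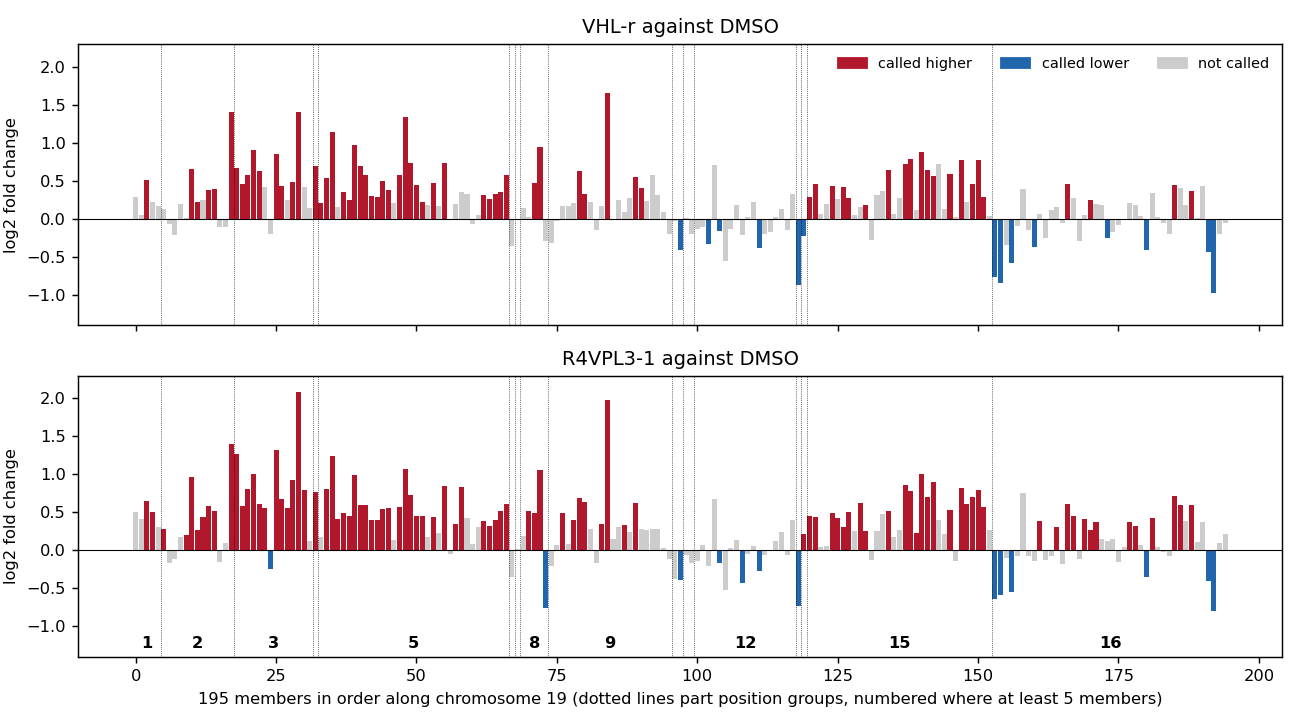
Log2 fold change (y axis) of the 195 genes in their order along chromosome 19 (x axis) for VHL-r (top) and R4VPL3-1 (bottom) against DMSO, red for called higher, blue for called lower and grey for not called, with dotted lines between groups of neighbouring genes. Most bars of groups 3, 5 and 15 are red, while group 12 holds no red bar in either panel.

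The share of genes that rose differed from place to place along the chromosome. The genes were parted into 16 groups wherever the next start lay more than 1000000 bases away. In the group at chr19:11559374-12640098 (14 genes, from ZNF627 to ZNF791, group 3), 9 rose with VHL-r and 12 with R4VPL3-1, and 0 and 1 fell, with medians of 0.48 and 0.74. The group at chr19:19668796-24129968 (34 genes, from ZNF101 to ZNF254, group 5), all with a KRAB box, had 24 rises with VHL-r and 26 with R4VPL3-1 and no fall by limma, edgeR or DESeq2, nor at an unadjusted p under 0.05, with medians of 0.33 and 0.45. At chr19:51571283-53580269 (33 genes, from ZNF175 to ZNF331, group 15), 17 and 21 rose and none fell by the same measures, with medians of 0.29 and 0.46.

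In other places rises were fewer, or falls stood beside them. Among all genes tested 10.3% rose and 9.51% fell with VHL-r, and 13.1% rose and 11.8% fell with R4VPL3-1. At chr19:43525497-45076478 (18 genes, 14 with a KRAB box, from ZNF575 to ZNF296, group 12), no gene rose with either compound by limma, edgeR or DESeq2 at the reported threshold, 3 fell with each (16.7%), and the medians were -0.14 and -0.03. At an unadjusted p under 0.05 limma gave 1 rise with VHL-r and 3 with R4VPL3-1 in this group, and DESeq2 called 0 falls with R4VPL3-1. The largest group, at chr19:55476617-58481230 (42 genes, 29 with a KRAB box, group 16), had 4 rises (9.52%) and 8 falls (19%) with VHL-r. With R4VPL3-1 it had 13 rises (31%) and 6 falls (14.3%). Its rises with VHL-r and its falls with R4VPL3-1 were thus near the shares of all genes tested. Among its 29 KRAB genes 3 rose and 4 fell with VHL-r, and 12 rose and 3 fell with R4VPL3-1. The group at chr19:36182276-37817300 (22 genes, group 9) had 5 rises with VHL-r (22.7%) and 8 with R4VPL3-1 (36.4%) and no fall. Groups 1, 2 and 8, of 5, 13 and 5 genes, had more rises than falls with each compound. Neighbours share sequence and local chromatin and are not independent of one another, and no test of the difference between groups was made.

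**Figure D4:**
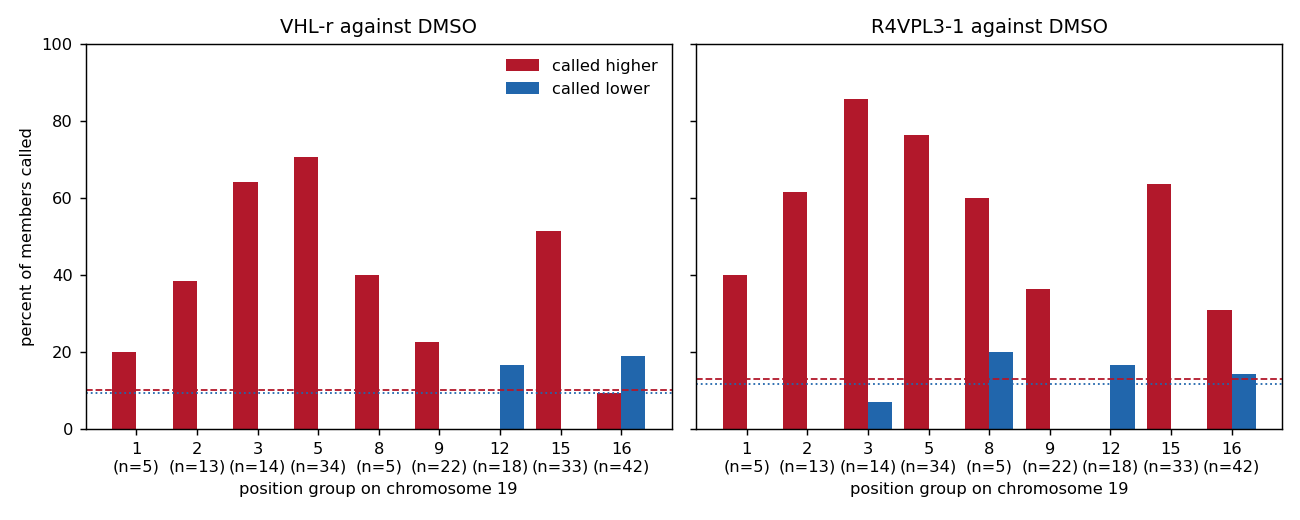
Percent of genes called higher (red) and lower (blue) in each group of at least 5 neighbouring genes on chromosome 19, for VHL-r (left) and R4VPL3-1 (right) against DMSO, with the dashed red line at the percent called higher and the dotted blue line at the percent called lower among all genes tested. Groups 3, 5 and 15 reach 64.3%, 70.6% and 51.5% higher with VHL-r and 85.7%, 76.5% and 63.6% with R4VPL3-1, against 10.3% and 13.1% for all genes tested, and group 12 stands at 0 in both panels.

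The rises lay mostly among genes with AT-rich transcripts. The transcripts of the 195 genes were AT-rich, with a median GC content of 41.9% against 48.0% for protein-coding genes tested, and 61.3% for the 28 without a KRAB box. Across the 195 genes the log2 fold change correlated with transcript GC at a Pearson r of -0.43 for VHL-r and -0.37 for R4VPL3-1 (Spearman -0.39 and -0.32), and across the 167 KRAB genes at -0.38 and -0.28. The points are genes of the same libraries, and the values are given as a description. By quartile of the GC content of protein-coding genes tested, 53 of 92 genes in the lowest quartile rose with R4VPL3-1, 39 of 72 in the next, 3 of 11 in the third and 0 of 20 in the highest, and with VHL-r 40, 28, 0 and 0 rose. In the third and the highest quartile 2 and 5 genes fell with VHL-r (18.2% and 25%) and 3 and 4 with R4VPL3-1 (27.3% and 20%), where 10.9% and 10.2%, and 14.3% and 12.5%, of other protein-coding genes fell. At an unadjusted p under 0.05, limma gave 0 and 1 rises in the upper quartiles with VHL-r and 3 in the highest with R4VPL3-1, where edgeR called 1 and DESeq2 0 at the adjusted threshold. Other protein-coding genes rose with R4VPL3-1 at 12%, 12%, 13.2% and 11.9% in the same quartiles, and with VHL-r at 10.6%, 9.9%, 10.8% and 9.44%. KRAB box, GC content and position go together in these genes, and their parts in the result were not tested.

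Rises were also counted among genes free of related sequence or overlap, and by level. Of the 195 genes, 114 had no 100-base window found in transcripts of another gene and no exon under another gene on the same strand. Of these 114, 35 (30.7%) rose with VHL-r and 51 (44.7%) with R4VPL3-1, against 10.3% and 13.1% of all genes tested. The medians were 0.19 and 0.27, and 9 and 8 of the 114 fell. Large rises were fewer here. With VHL-r 5 passed 1.5-fold and 0 passed 2-fold, against 24 and 5 in the whole class. With R4VPL3-1 20 and 3 did, against 43 and 10. With all 195 genes divided by mean level, 14, 27 and 27 of 65 genes rose with VHL-r in the lowest, middle and highest tertile, and 26, 36 and 33 rose with R4VPL3-1. Number of fingers correlated weakly with the log2 fold change (Pearson r 0.15 and 0.10), as did exon length (0.19 and 0.16).

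R4VPL3-1 was then compared with VHL-r directly, at the same dose and time, to ask what the rest of the molecule added for these mRNAs. Of the 195 genes 6 (3.08%) were higher in R4VPL3-1, against 1.14% of all genes tested. By limma none was lower, where 0.729% of all genes tested were, 1 was lower at an unadjusted p under 0.05, and edgeR and DESeq2 on the recovered reads also called 0 lower. The median log2 difference was 0.10 over the class and -0.006 over all genes tested, and 148 of 195 values were positive. The 2 groups of 3 libraries did not overlap in 49 genes with R4VPL3-1 above and in 4 with R4VPL3-1 below, against 6.99% and 7.11% of all genes tested. Without VHL-r replicate 2, VHL-r replicate 3 or R4VPL3-1 replicate 1 the number of genes higher was 3 each time. For the other 189 genes no difference was called, which does not show that the compounds acted alike on them. Numbered ZNF genes on other chromosomes gave similar values, with 6 of 210 higher (2.86%), 2 lower (0.952%) and a median of 0.08. Of these 210 values 146 were positive, so the difference was not particular to chromosome 19.

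All 6 called genes of the class carry a KRAB box, as do 167 of the 195. None of the 28 without a box was called, but 22 of their values were positive, with a median of 0.07. On other chromosomes, 2 of 85 numbered ZNF genes with a box (2.35%) and 4 of 125 without (3.2%) were higher. ZNF473, known as ZFP100, is a component of the U7 particle that processes histone mRNA ends. For ZNF473 the libraries gave 889, 842 and 843 in DMSO, 764, 721 and 709 in VHL-r and 1078, 1034 and 894 in R4VPL3-1. It was below all DMSO libraries in VHL-r and above all of them in R4VPL3-1. Against VHL-r, ZNF473 was 1.37-fold higher in R4VPL3-1 (log2 difference 0.45 ± 0.070 SE, adjusted p = 0.00048). Against DMSO it fell with VHL-r (log2 -0.23, adjusted p = 0.0236) and rose with R4VPL3-1 (log2 0.22, adjusted p = 0.026). The fall was not called without DMSO replicate 1 or 2 or VHL-r replicate 2 or 3 (adjusted p 0.0506 to 0.0917), and the rise not without DMSO replicate 2 or 3 or R4VPL3-1 replicate 1 or 2 (0.0729 to 0.154). ZNF627, described above, differed by 1.51-fold (adjusted p = 0.000646). In DMSO ZNF766 was measured at 334, 354 and 358, in VHL-r at 361, 400.2 and 409 and in R4VPL3-1 at 565, 529 and 515. Against VHL-r, ZNF766 was 1.38-fold higher in R4VPL3-1 (log2 difference 0.46 ± 0.081 SE, adjusted p = 0.00172). For ZNF766 the DMSO and VHL-r libraries lay close together and R4VPL3-1 stood apart.

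ZNF160, ZNF566 and ZNF550 were called with less margin. ZNF160 was at 664, 659 and 706 in the DMSO, 1049.8, 1038 and 919 in the VHL-r and 1421, 1231 and 1141 in the R4VPL3-1 libraries. Against VHL-r, ZNF160 was 1.26-fold higher in R4VPL3-1 (log2 difference 0.33 ± 0.076 SE, adjusted p = 0.0204). ZNF566 stood at 439.5, 463 and 518 normalized counts in the DMSO libraries, 544, 544 and 501 in VHL-r and 681, 644 and 678 in R4VPL3-1. ZNF160 rose in steps over the 3 treatments, while ZNF566 stood apart in R4VPL3-1. Against VHL-r, ZNF566 was 1.26-fold higher in R4VPL3-1 (log2 difference 0.33 ± 0.076 SE, adjusted p = 0.0206). The normalized counts of ZNF550 were 824, 794 and 859.9 in DMSO, 794, 704 and 588 in VHL-r and 1002, 859.6 and 844 in R4VPL3-1. Against VHL-r, ZNF550 was 1.30-fold higher in R4VPL3-1 (log2 difference 0.38 ± 0.090 SE, adjusted p = 0.0249). ZNF550 was lowest in VHL-r, and overlapped between DMSO and R4VPL3-1. Each of these 3 calls was lost on leaving out the second or the third VHL-r replicate or R4VPL3-1 replicate 1, as it was for ZNF160 and ZNF550 without R4VPL3-1 replicate 2 and for ZNF566 without R4VPL3-1 replicate 3, with adjusted p from 0.0506 to 0.208. ZNF442, at 1.60-fold, had an interval of 0.27 to 1.09 on the log2 scale and an adjusted p of 0.0994.

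The members with the highest level per kb of exon moved little. ZNF146, a protein of fingers alone, stood at 1188 normalized counts per kb, followed by ZNF428 at 403, ZNF787 at 395, ZNF317 at 387 and ZNF358 at 295. For ZNF146 the libraries gave 4866, 4937 and 4812 in DMSO, 5062, 4752 and 4559.8 in VHL-r and 5307, 4935 and 5084 in R4VPL3-1. The groups overlapped, and the 95% interval of the log2 fold change was -0.12 to 0.07 for VHL-r and -0.03 to 0.17 for R4VPL3-1. Of the 5, ZNF317 alone carries a KRAB box and alone was called. In DMSO ZNF317 was measured at 1876, 1777 and 1924, in VHL-r at 1884, 1907 and 1830.3 and in R4VPL3-1 at 2203, 2101 and 2084. With R4VPL3-1 ZNF317 was 1.15-fold higher (log2 0.20 ± 0.050 SE, adjusted p = 0.00598). VHL-r left it at 1.01-fold (interval -0.09 to 0.12).

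Of 8 genes listed for a known role, 2 rose and 1 fell with VHL-r and 4 rose with R4VPL3-1. With VHL-r 34.9% of the class rose and 7.18% fell, and with R4VPL3-1 48.7% rose. Among all genes tested 10.3% rose and 9.51% fell with VHL-r, and 13.1% rose with R4VPL3-1. These counts therefore do not set the listed genes apart from the class. ZNF91, which represses SVA elements, and ZNF93, which represses LINE-1 elements, lie in the large cluster by the centromere. ZNF91 was at 778, 847 and 777 in the DMSO, 1039, 985 and 959.7 in the VHL-r and 1009, 1039.7 and 1083 in the R4VPL3-1 libraries. The rise of ZNF91 with VHL-r was 1.24-fold (log2 0.31 ± 0.062 SE, adjusted p = 0.000848). ZNF91 rose 1.30-fold with R4VPL3-1 (log2 0.38 ± 0.062 SE, adjusted p = 8.04e-05). The libraries of the compounds overlapped for ZNF91 and stood above all DMSO libraries. ZNF93 stood at 512, 460.4 and 462 normalized counts in the DMSO libraries, 523, 548 and 523 in VHL-r and 684, 599 and 624 in R4VPL3-1. With R4VPL3-1 ZNF93 was 1.33-fold higher (log2 0.41 ± 0.075 SE, adjusted p = 0.000328). ZNF93 was not called with VHL-r (log2 0.15, adjusted p = 0.177). ZNF175 rose with R4VPL3-1 (1.37-fold, adjusted p = 0.00131) and with VHL-r (1.22-fold, adjusted p = 0.0408), the latter with overlapping libraries and not without DMSO replicate 1 or 3 or VHL-r replicate 1 or 3 (adjusted p 0.099 to 0.166), with DESeq2 (0.0679) or without the filter (0.0532).

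ZNF274, which binds the ends of ZNF genes and brings SETDB1 to them, was not called. The normalized counts of ZNF274 were 1027, 958 and 1042 in DMSO, 994, 1036 and 1022 in VHL-r and 1133, 1097 and 1031 in R4VPL3-1. The log2 fold change of ZNF274 in R4VPL3-1 against DMSO was 0.11 ± 0.060 (SE), with an adjusted p of 0.213. ZNF224, a repressor of the aldolase A gene, and ZNF420, an inhibitor of p53 also named Apak, were not called either, with intervals against DMSO of -0.26 to 0.15 and -0.06 to 0.36 for R4VPL3-1. For ZNF331 the libraries gave 635, 610.0 and 629 in DMSO, 674, 657 and 598 in VHL-r and 937, 699 and 647 in R4VPL3-1. ZNF331, an imprinted gene, was high in R4VPL3-1 replicate 1. The log2 fold change of ZNF331 in R4VPL3-1 against DMSO was 0.27 ± 0.099 (SE), with an adjusted p of 0.0544. It became called without R4VPL3-1 replicate 3 and under 5 other settings.

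Of the genes through which KRAB proteins act, a minority was called, in both directions. Of 26 genes tested on a list of 27, 3 rose and 3 fell with VHL-r (11.5% each, near the share of all genes), 3 rose (11.5%) and 7 fell (26.9%) with R4VPL3-1, against 13.1% and 11.8% of all genes tested, and by limma none differed between the compounds at the adjusted threshold. At an unadjusted p under 0.05 limma gave 1 lower and 0 higher between the compounds, and edgeR and DESeq2 called 0. TRIM28, the cofactor itself, was not called with either compound, at 21639 to 24068 in DMSO, 23842 to 25726 in VHL-r, 22631 to 26068 in R4VPL3-1. In DMSO ATF7IP was measured at 2167, 2077 and 2271, in VHL-r at 2917, 2472 and 2564 and in R4VPL3-1 at 2905, 2645 and 2604. ATF7IP, the partner of SETDB1, rose 1.22-fold with VHL-r (adjusted p = 0.0018) and 1.25-fold with R4VPL3-1 (adjusted p = 0.000426), as did ATF7IP2 (1.38-fold and 1.47-fold) and TRIM24, a relative of TRIM28 (log2 0.39 and 0.34). The falls with R4VPL3-1 included CBX5, or HP1 alpha (log2 -0.32, adjusted p = 7.31e-05), DAXX, a chaperone of histone H3.3 (log2 -0.32, adjusted p = 9.46e-05), the methyltransferase SUV39H1 (log2 -0.31, adjusted p = 0.000538) and MPHOSPH8 of the HUSH complex (log2 -0.19, adjusted p = 0.00572). CBX5 and DAXX fell with VHL-r as well (log2 -0.26 and -0.24, limma adjusted p = 0.00095 and 0.00236).

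SETDB1 fell by 0.18 on the log2 scale with each compound (adjusted p = 0.0184 and 0.0119). Without DMSO replicate 3 neither fall of SETDB1 was called (adjusted p = 0.0833 and 0.0583), nor was that with VHL-r without DMSO replicate 1 or VHL-r replicate 2 (0.0522 and 0.126). SUV39H2 (log2 -0.23) and CBX3, or HP1 gamma (log2 -0.14), fell with R4VPL3-1, and both calls were lost without DMSO replicate 2 (adjusted p = 0.0622 and 0.0827), that of CBX3 also without R4VPL3-1 replicate 1 or 2 (0.08 and 0.0924).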

How the data were processed

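RNA of A375R cells from 3 groups of 3 libraries was analysed. The authors aligned strand-specific reads of 100 bases to GRCh38 with STAR, counted them per Ensembl gene with htseq-count in reverse mode and divided the counts by DESeq2 (1.36.0) size factors, and the deposited values are this normalized signal. The counter drops reads that lie over several genes of a strand, and whether this set genes to 0 was not tested. Values above 0 were whole multiples of the value of 1 read within a tolerance of 0.1 reads, which gave back the reads per gene (26435568 to 32085626 per library), so that counting adds little error except at low levels.

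Genes with a mean of at least 10 (15230) were tested with limma (3.58.1, R 4.3.3, trend option) on log2(value + 1), which understates the change of low genes, in a single-factor fit of all 9 libraries as in the study's methods. Adjusted p-values are Benjamini-Hochberg over all genes tested, from limma unless another tool is named, with a threshold of 0.05. Errors are SE of the log2 fold change or ranges over 3 libraries, and intervals are 95%. p-values measure the spread between these libraries. The fits were tested on simulated data. Alternatives were other pseudocounts, filters and scalings, robust fitting in limma, fitting with a replicate block, count tests of the recovered reads with edgeR (4.0.16) or DESeq2 (1.42.0), fewer libraries and a stricter threshold.

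Genes were named by rule: the 8 largest rises and falls with each compound among called genes with separate libraries, all called between the compounds, the 5 highest per kb of exon, a list of known roles, 3 on either side of the mean of 10, and called KRAB cofactors. Among other genes, TRIM28 and the markers were named from fixed lists. The members and lists were chosen with earlier results of these data known. Position groups were cut at gaps of 1000000 bases. Exons, canonical transcripts and their translation came from GENCODE 44, with KRAB boxes found by a short pattern, and promoters from RefSeq. The printed promoters were chosen after values were seen.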

Additional observations from a re-analysis of the deposited data

How the results depend on the processing

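At an adjusted p of at most 0.01, 45 genes rose with VHL-r, 8 fell with R4VPL3-1 and 3 were higher in R4VPL3-1 than in VHL-r. Leaving out 1 library at a time gave 50 to 70 rises and 10 to 16 falls with VHL-r, 80 to 99 rises and 8 to 13 falls with R4VPL3-1, and 3 to 8 genes higher between the compounds. The 8 falls came without R4VPL3-1 replicate 3, and the 3 genes without VHL-r replicate 2, VHL-r replicate 3 or R4VPL3-1 replicate 1. The cause was not tested. A stricter threshold left fewer calls, whereas leaving out a library gave fewer in some fits and more in others. Without DMSO replicate 3, for example, 99 genes rose with R4VPL3-1, against 95 in the full fit. Every other count stayed within 1.5 times its value, with 58 to 70 rises for VHL-r and 88 to 104 for R4VPL3-1 outside those settings. No median changed sign, nor did any value of a named gene that was called in either setting. Some values not called crossed 0, such as ZNF224 with R4VPL3-1 (log2 -0.16 to 0.06). Of 73 calls for named genes 57 held under all 21 settings, 16 were lost under at least 1, and 4 values not called were gained.

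Same-numbered libraries deviated together weakly at most, with correlations of -0.006 to 0.121 over the 9 pairs. Pairs with different numbers had correlations of -0.148 to 0.098. The numbers were not taken to pair the samples, as in the study's single-factor model, and a weak effect shared by replicate number is not excluded. With a replicate block 70 genes rose and 16 fell with VHL-r, 104 rose and 13 fell with R4VPL3-1, and 9 were higher between the compounds. Over all genes tested the block gave 3451, 4241 and 389 calls in these comparisons, against 3016, 3792 and 285 without it.

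Depth limits the genes near a mean of 10, such as ZNF568, and the cause of the values listed at 0 was not tested. The design has 1 line, 1 dose and 1 time, and mRNA half-lives were not measured.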
